A study of Rattus norvegicus with 2 samples.

Results

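The complement, Fc receptor, MHC and phagocytic receptor genes of rat microglia were examined on the array of cells exposed to oxygen-glucose deprivation (OGD, which withholds oxygen and glucose as a culture model of ischaemia) and on the array of resting cells. Members were all probe sets, the sets of short probes that together read 1 transcript, which the array annotation assigns to exactly 1 gene whose symbol starts with RT1- or Fcgr or stands in a list of 41 immune genes. This gave 79 probe sets for 55 genes, out of 31042 probe sets besides the array controls, of which 20826 named 1 gene and together covered 14217 genes. Of the 41 listed genes 35 were found. C2, Cfb and Fcgr2a had only probe sets that name several genes, and Cd59, Msr1 and Marco had no named probe set. The 18 RT1 genes, as the rat MHC genes are called, had 31 probe sets.

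The OGD group was 1 array of Sprague Dawley microglial cells after OGD for 3 h, and the resting group was 1 array of Sprague Dawley microglial cells without exposure. Both were grown in medium with fetal calf serum. The labels do not say how many animals or cultures the RNA came from. With 1 array per group there is no test, no standard error and no p-value, and each difference describes these arrays. Differences are log2 OGD minus log2 resting.

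Microglia are the resident macrophages of the brain, and these genes serve their clearance and alarm functions. C1q binds debris and synapses and starts the classical complement pathway, which leads to C3 and to fragments sensed by C3ar1 and C5ar1. Fc receptors bind antibody-coated targets, Trem2, Axl, Mertk and scavenger receptors bind lipids and dying cells, and MHC class I and class II molecules show peptides to CD8 and CD4 T cells.

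Intensities had a median of 19.7 on the OGD array and 19.6 on the resting array over all probe sets besides controls, and a value under its array's median was taken as not measured, so that the median is called the floor. Of the 55 member genes, each represented by its brightest probe set, 37 were above the floor on both arrays, 3 on 1 array only and 15 on neither. The 3 in between enter with the floor in place of the value below it, so their differences are bounds. Intensities of different probe sets depend on their probes as well as on the transcript, so they are not set against each other.

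None of the 40 measured member genes differed by 1.5-fold, the threshold in the series' design text, where 0.115% of all 9580 measured genes did. The count at the level of probe sets was 0 of 49, against a background of 0.164%. At 1.2-fold, 2 member genes were past the threshold. They were C1qc, a chain of C1q, at 1.23-fold higher on the OGD array, and RT1-S3, a nonclassical class I gene, at 1.28-fold lower. C1qc was no longer past 1.2-fold with the floor at the 70th percentile or with a pseudocount, and RT1-S3 was not when probe sets with suffix letters, which mark probes that match several transcripts, were left out. The background at 1.2-fold was 7.53% of genes, with 3.56% higher and 3.97% lower, and 8.1% of probe sets. The member share of 5.0% of genes lay near it. The median over the 40 members was 0.0036, with 20 higher, 19 lower and 1 equal, against -0.0076 over all measured genes, of which 42.8% were higher and 51.3% lower.

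The only spread that could be estimated from these arrays was that between probe sets of the same gene. It had a pooled SD of 0.147 over 1902 genes and of 0.11 over the 6 member genes with at least 2 probe sets above both floors. It covers neither the spread between cultures nor effects that probe sets of a gene share. Of the 40 member genes 9 differed by more than 0.147, 5 of them higher and 4 lower on the OGD array, which is 22.5% against a background of 29.9% of all measured genes. The 9 were C1qa and C1qc of complement, the class I genes RT1-CE5, RT1-M3-1, RT1-S3, RT1-T24-3 and RT1-T24-4, the Fc receptor Fcgr1a and the tetraspanin Cd9. None belonged to the MHC class II or phagocytic receptor group.

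**Figure D1:**
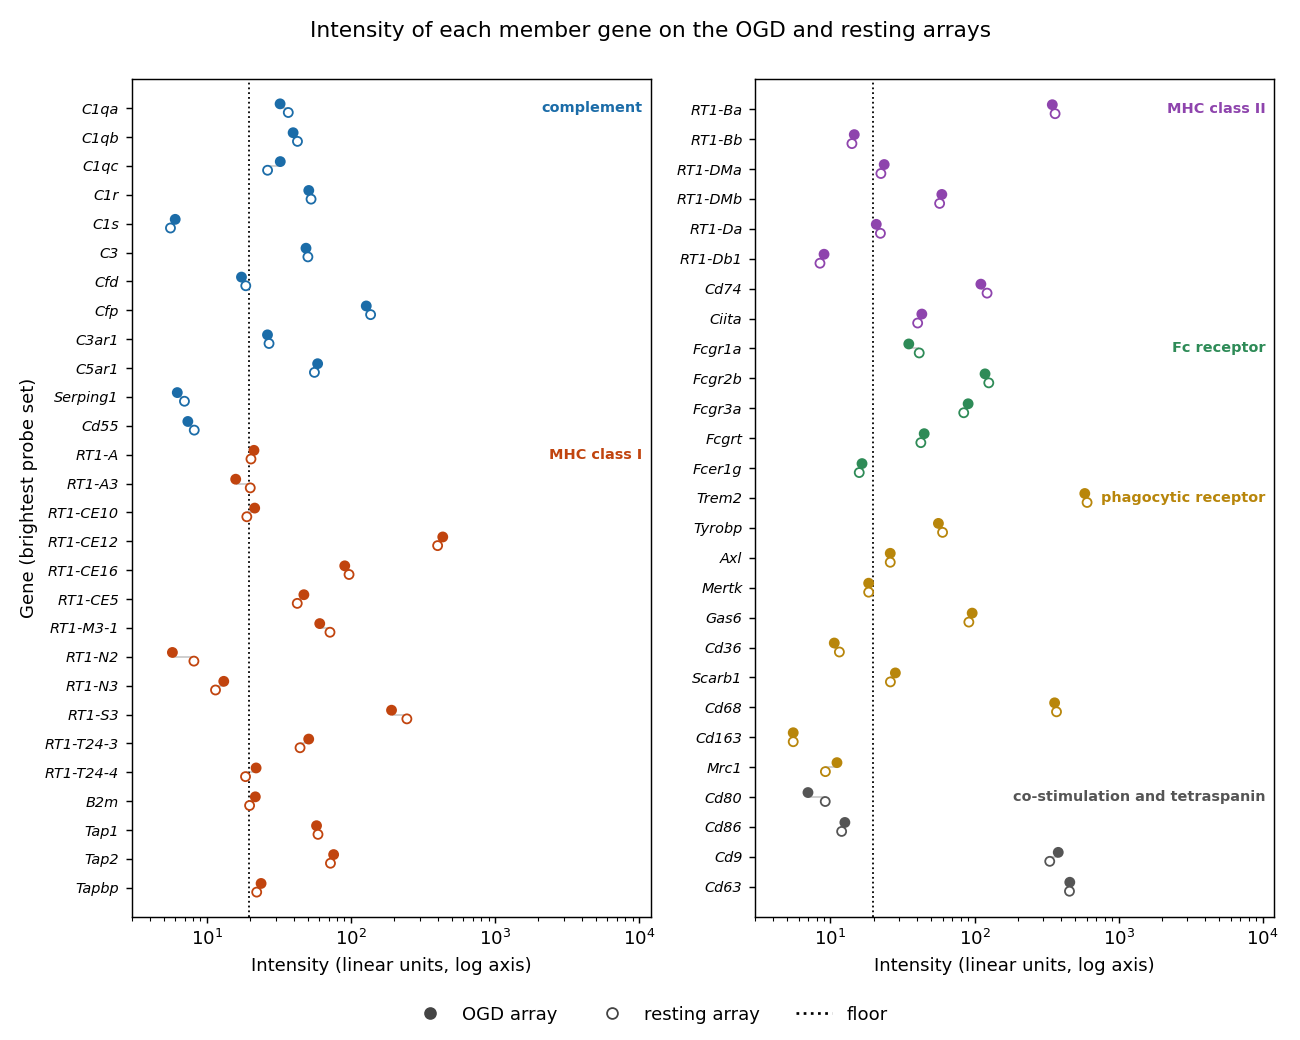
Intensity of the brightest probe set of each of the 55 member genes, on a log axis, with the OGD array as filled points and the resting array as open points. The dotted line is the floor at 19.7. The points of a gene lie close together, with the widest gap among genes above the floor on both arrays for RT1-S3 (191 on the OGD array and 244 on the resting array), and 15 genes lie left of the floor on both arrays.

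The complement group held 12 genes, 8 of them above the floor. C1q is built from chains A, B and C, encoded by C1qa, C1qb and C1qc, which lie next to each other in the RefSeq gene order as C1qb, C1qc and C1qa. C1qa had an intensity of 32.2 on the OGD array and 36.7 on the resting array, a log2 difference of -0.19. C1qb had 39.6 on the OGD array and 42.5 on the resting array, a difference of -0.10. C1qc had 32.3 on the OGD array and 26.3 on the resting array, a difference of 0.29 in the other direction. The transcripts of chains A and B were thus lower and that of chain C higher, each read by a single probe set.

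C1r, a protease carried by C1q, had 50.9 on the OGD array and 52.8 on the resting array, a difference of -0.05. The partner protease gene C1s was under the floor, at 6.02 on the OGD array and 5.58 on the resting array. C3, the central component on which all complement pathways meet, had 48.7 on the OGD array and 50.2 on the resting array, a difference of -0.04. All values of these genes lay within the spread between probe sets.

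Cfp, which encodes properdin and stabilises the alternative pathway convertase, had 2 probe sets that were both lower. They read 128 and 104 on the OGD array, against 137 and 114 on the resting array, with differences of -0.10 and -0.13. Cfd, the protease that starts the alternative pathway, was under the floor, at 17.4 on the OGD array and 18.6 on the resting array.

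Among the receptors for complement fragments, C3ar1 had 26.3 on the OGD array and 27.0 on the resting array (-0.04), and C5ar1 had 58.6 on the OGD array and 55.7 on the resting array (0.07). The regulators Serping1, which blocks C1r and C1s, and Cd55, which dissociates convertases on the cell surface, were under the floor in all their probe sets on both arrays. The complement group as a whole had 2 genes higher and 6 lower, with a median of -0.05 and a range from -0.19 to 0.29.

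Further complement genes, taken from a list of 24 components, receptors and regulators outside the members, showed the same small scale. Of these, 18 had a probe set and 10 were measured, 4 higher and 6 lower with a median of -0.02 and 0 past 1.2-fold. Masp2, a protease of the lectin pathway, was 1.14-fold higher in OGD. Itgb2, the beta chain of complement receptor 3, was 1.12-fold higher, and Cr2, which encodes complement receptor 2, at least 1.12-fold higher. Itgam, the alpha chain of complement receptor 3, had 56.5 on the OGD array and 60.9 on the resting array (-0.11). It is named outside the rule for partners, because it lay on the other side of 0 from Itgb2. The other 8 with a probe set were under the floor on both arrays.

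**Figure D2:**
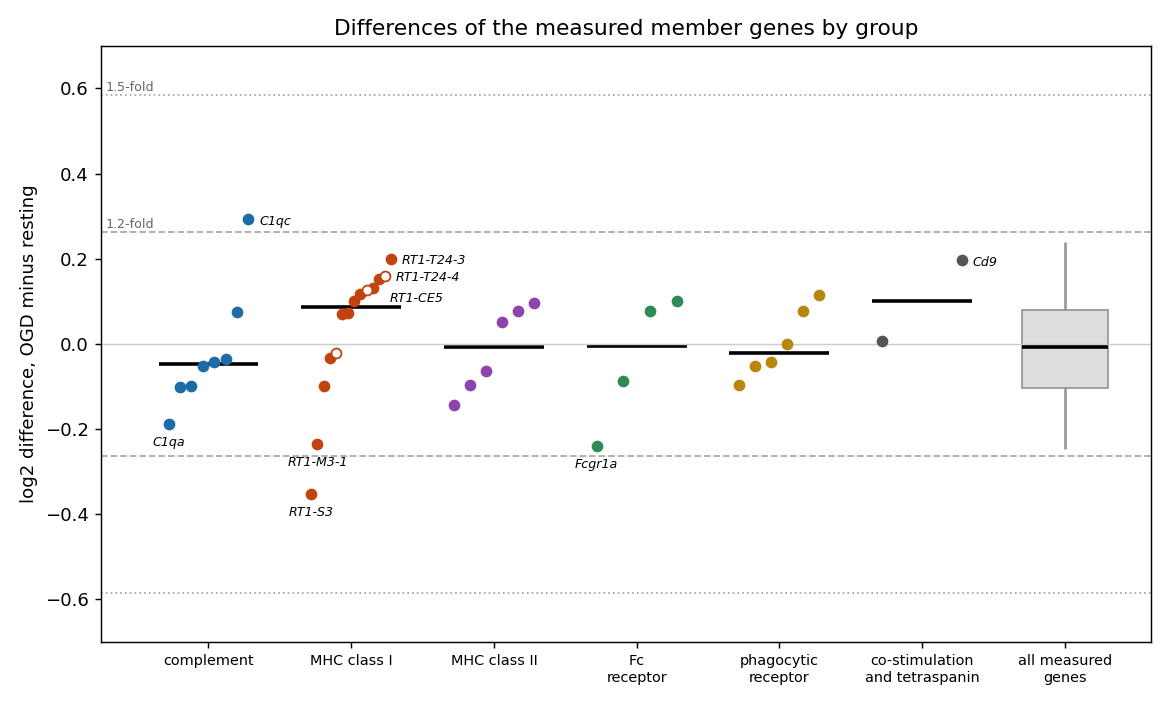
log2 difference, OGD minus resting, of each measured member gene by group. Filled points were above the floor on both arrays, open points on 1 array (bounds), black lines are medians, and the grey box shows the quartiles of all measured genes (-0.10 and 0.08), with whiskers at the 5th and 95th percentiles (-0.25 and 0.24). Only C1qc (0.29) and RT1-S3 (-0.35) lie beyond the dashed 1.2-fold lines, and no gene reaches the dotted 1.5-fold lines.

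The MHC class I group held 16 genes, 12 RT1 heavy chains and the 4 genes B2m, Tap1, Tap2 and Tapbp, and 14 of these were measured. It had 9 genes higher and 5 lower on the OGD array, with a median of 0.09 and a range from -0.35 to 0.20. The median was 0.0199 with the floor at the 70th percentile, where genes near the floor drop out. RT1-S3 was the gene with the largest difference among all members. Its brightest probe set had 191 on the OGD array and 244 on the resting array, a difference of -0.35, and a second had 39.5 on the OGD array and 43.9 on the resting array, a difference of -0.15. Both were lower, while the other pair of probe sets of RT1-S3 lay under the floor, with 11.5 and 8.54 on the OGD array and 10.1 and 7.50 on the resting array.

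RT1-M3-1, of the M3 family whose mouse counterpart presents formylated peptides, had 60.6 on the OGD array and 71.4 on the resting array, a difference of -0.24. RT1-T24-3 had 50.8 on the OGD array and 44.2 on the resting array, a difference of 0.20. RT1-T24-4 had 21.9 on the OGD array and 18.5, under the floor, on the resting array, which makes it at least 1.12-fold higher. The nonclassical class I genes thus lay on both sides of 0.

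In the RT1-CE region RT1-CE12 had 433 on the OGD array and 399 on the resting array (0.12), and RT1-CE16 had 90.4 on the OGD array and 96.8 on the resting array (-0.10). RT1-CE5 had 47.1 on the OGD array and 42.3 on the resting array (0.15) in 1 probe set, while its other 4 were under the floor on both arrays. RT1-CE10 was at least 1.09-fold higher, at 21.4 on the OGD array and 18.9, under the floor, on the resting array.

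The classical class I gene RT1-A had 21.2 on the OGD array and 20.2 on the resting array (0.07), just above the floor. RT1-A3 was above the floor at rest only, with 15.8 on the OGD array and 20.0 on the resting array, and is at least 1.02-fold lower. Its other probe set was under the floor on both arrays. RT1-N2 and RT1-N3 were under the floor on both arrays. RT1 genes are close relatives, so values of single RT1 genes may hold signal from their relatives. Of their 31 probe sets 13 carry such suffix letters, as both measured ones of RT1-S3 do, the brightest with a and the other with x. The letters were pooled, whether the several transcripts belong to 1 gene or to several. The suffix alone therefore does not show signal from relatives.

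Genes of class I assembly had a median of 0.09, with all differences within the spread between probe sets. B2m, the light chain of class I molecules, had 21.7 on the OGD array and 19.8, just above the floor, on the resting array (0.13) in 1 probe set. It was under the floor in the other. Tap1, a subunit of the peptide transporter, had 57.6 on the OGD array and 58.9 on the resting array (-0.03) in 1 probe set. Its other probe set was under the floor on both arrays. Tap2, the second subunit, had 75.7 on the OGD array and 71.9 on the resting array (0.07). Tapbp, which encodes the peptide-loading chaperone tapasin, had 23.7 on the OGD array and 22.1 on the resting array (0.10).

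Of 14 partner genes of class I, which include proteasome subunits, chaperones and regulators, 12 were measured, 6 higher, 5 lower and 1 equal, with a median of 0.0012. These partners were chosen with earlier results of these data known, so their share past 1.2-fold is not independent support. Past 1.2-fold there were 3, or 25%, against 7.53% of all measured genes, with 3.97% lower. These 3 were the immunoproteasome subunits Psmb9, at 199 on the OGD array and 269 on the resting array (-0.43), and Psmb10, at 146 on the OGD array and 198 on the resting array (-0.43), and the proteasome activator subunit Psme1, at 84.6 on the OGD array and 104 on the resting array (-0.30). The remaining lower genes were the immunoproteasome subunit Psmb8 (-0.25) and the activator subunit Psme2 (-0.19). Erap1, a protease that trims peptides, was slightly higher, with 78.6 on the OGD array and 75.9 on the resting array (0.05). Psmb8, Psme2 and Erap1 are named outside the rule for partners, after their values were seen. In the RefSeq gene order Tap2, Psmb8, Tap1 and Psmb9 follow each other. The transporter subunits in this run had differences of 0.07 and -0.03 and the proteasome subunits differences of -0.25 and -0.43.

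Promoters of class I assembly genes carry interferon response elements, as background, and those of Tap1, Tap2, Tapbp and B2m are shown as the genes of assembly among the members. The window taken for each gene ran from 250 bases before to 50 bases after the start in RefSeq, build GRCr8. The letters GAAANNGAA, a core of such elements, were searched on both strands and stand in capitals. They occurred in 6 of the 15 class I genes with a promoter sequence, and in 9.71% of all 33469 promoters. Besides the 4 genes shown, the class I matches were in RT1-S3, the member with the largest difference (-0.35), and in RT1-N3, which was under the floor. Outside class I the letters occurred in Fcgr3a and Fcgrt, 2 of the 2 Fc receptor genes with a promoter sequence, and in Cd80. In the sequence of Tapbp a pair of matches overlaps. The match is a description of letters and not of a used site.
Tap1 (chr20:4668635-4668703, minus strand): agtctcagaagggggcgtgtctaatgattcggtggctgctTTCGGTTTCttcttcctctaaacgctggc
Tap2 (chr20:4652309-4652377, minus strand): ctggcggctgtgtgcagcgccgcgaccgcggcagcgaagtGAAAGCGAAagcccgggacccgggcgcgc
Tapbp (chr20:4967869-4967937, minus strand): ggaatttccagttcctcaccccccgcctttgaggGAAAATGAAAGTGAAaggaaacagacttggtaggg
B2m (chr3:129549140-129549208, plus strand): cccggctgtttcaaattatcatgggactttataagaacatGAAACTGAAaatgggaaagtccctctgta

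The MHC class II group held 8 genes and 6 were measured, 3 higher and 3 lower, with a median of -0.0067 and the range from -0.14 to 0.10. RT1-Ba, the alpha chain of the RT1.B molecule, had 4 probe sets. They read 347, 347, 42.4 and 17.3 on the OGD array, against 362, 346, 45.5 and 20.0 on the resting array, with differences of -0.06, 0.0042 and -0.10 and, for the last, a bound of -0.02. The differences of this gene lay on both sides of 0 and within the spread between probe sets.

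RT1-Da, the alpha chain of the RT1.D molecule, had 20.8 on the OGD array and 22.2 on the resting array (-0.10), near the floor. The beta chain genes RT1-Bb and RT1-Db1 were under the floor on both arrays, RT1-Bb at 14.6 on the OGD array and 14.1 on the resting array and RT1-Db1 at 9.02 on the OGD array and 8.46 on the resting array. RT1-DMa had 23.6 on the OGD array and 22.4 on the resting array (0.08), and RT1-DMb had 59.3 on the OGD array and 57.2 on the resting array (0.05). DM molecules exchange the peptide in class II molecules.

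Cd74, the invariant chain that escorts class II molecules, had 111 on the OGD array and 122 on the resting array, a difference of -0.14 and the largest of the class II group. Ciita, the transactivator on which class II transcription depends, was slightly higher in both probe sets, with 43.1 and 27.3 on the OGD array, against 40.3 and 26.8 on the resting array (0.10 and 0.03). All 14 listed partners of class II had a probe set and 11 were measured, 7 higher, 3 lower and 1 equal, with a median of 0.02 and 0 past 1.2-fold. Ctsl, a lysosomal protease, was 1.18-fold higher and Creb1, a transcription factor, 1.18-fold higher on the OGD array, and Marchf1, a ubiquitin ligase that removes class II molecules from the surface, was at least 1.08-fold lower. Of the genes for the RFX and NF-Y factors that bind class II promoters, Rfx5, Nfya and Nfyc had differences of 0.03, 0.06 and 0.02 and Rfxank one of -0.08, while Rfxap and Nfyb were under the floor on both arrays. These are named for the promoters described next, outside the rule for partners.

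Class II promoters are known for an X box and a Y box on which those factors and CIITA assemble. The promoters of the class II chains are shown because these genes share letters of that arrangement. Capitals mark GATTGG, the core of the Y box (read on the other strand as CCAATC), and GCAAC, part of the X box, where it lies 15 to 40 bases before GATTGG. The letters were chosen with these promoters in view. GATTGG on either strand occurred in 5 of the 6 class II genes with a promoter sequence and in 9 of the 15 class I genes, against 14.8% of all promoters. Among the other groups it occurred only in 2 of the 8 phagocytic receptor genes. GCAAC followed by GATTGG occurred in RT1-Ba, RT1-Da and RT1-Db1, 3 of 6 class II genes, with 27, 27 and 26 bases between them, against 0.191% of all promoters. The sequences are from RefSeq, build GRCr8.
RT1-Ba (chr20:4576971-4577028, plus strand): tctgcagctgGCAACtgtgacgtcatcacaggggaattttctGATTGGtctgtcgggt
RT1-Da (chr20:4515323-4515380, plus strand): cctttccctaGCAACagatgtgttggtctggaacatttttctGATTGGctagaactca
RT1-Db1 (chr20:4560228-4560284, minus strand): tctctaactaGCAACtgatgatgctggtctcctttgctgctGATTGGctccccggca
RT1-Bb (chr20:4604155-4604220, minus strand): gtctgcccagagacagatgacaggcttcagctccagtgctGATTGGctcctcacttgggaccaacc
RT1-DMa (chr20:4712375-4712440, minus strand): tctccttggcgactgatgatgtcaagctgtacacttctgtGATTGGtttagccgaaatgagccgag
The class I genes RT1-S3 and RT1-M3-1, whose differences were the lowest of their group, are added for comparison.
RT1-S3 (chr20:2675448-2675513, plus strand): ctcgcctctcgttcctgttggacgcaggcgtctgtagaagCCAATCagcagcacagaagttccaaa
RT1-M3-1 (chr20:1333338-1333403, minus strand): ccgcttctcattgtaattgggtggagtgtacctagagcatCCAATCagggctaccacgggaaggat

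In RT1-Ba, RT1-Da and RT1-Db1 the letters lay in the same order and at nearly the same spacing. The difference of RT1-Ba was -0.06 and that of RT1-Da -0.10, and RT1-Db1 was not measured. GATTGG, on either strand, was also found in RT1-S3 and RT1-M3-1, which were lower, and in RT1-T24-3 and RT1-CE5, which were higher on the OGD array. The other class I genes with these letters were B2m (0.13), RT1-CE16 (-0.10), RT1-A3 (a bound of -0.02), and RT1-N2 and RT1-N3, which were under the floor.

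The Fc receptor group held 5 genes. Fcgr1a, the high-affinity receptor for IgG, had 35.0 on the OGD array and 41.3 on the resting array, a difference of -0.24. Fcgr2b, the inhibitory IgG receptor, had 118 on the OGD array and 126 on the resting array (-0.09). Fcgr3a, an activating receptor whose gene follows Fcgr2b in the RefSeq gene order, had 90.3 on the OGD array and 84.1 on the resting array (0.10).

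Fcgrt, which encodes the neonatal Fc receptor, a relative of class I molecules that recycles IgG, had 44.7 on the OGD array and 42.4 on the resting array (0.08). Fcer1g, the signalling chain shared by activating Fc receptors, was under the floor, at 16.6 on the OGD array and 15.8 on the resting array. The group had 2 genes higher and 2 lower, with a median of -0.0048 and a range from -0.24 to 0.10. The activating receptors Fcgr1a and Fcgr3a thus lay on opposite sides of 0.

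Of 13 listed genes of Fc receptor signalling 10 were measured, 4 higher and 6 lower, with a median of -0.05 and 0 past 1.2-fold. Cybb, the catalytic subunit of the phagocyte oxidase, was 1.14-fold lower on the OGD array. Syk, the kinase recruited to activated Fc receptors, was 1.13-fold higher, and Ptpn6, a phosphatase that acts against such signals, 1.11-fold higher.

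The phagocytic receptor group held 10 genes and 6 were measured, 2 higher, 3 lower and 1 equal, with a median of -0.02. Trem2, a lipid receptor of microglia, was lower in both probe sets, which read 583 and 367 on the OGD array, against 604 and 391 on the resting array (-0.05 and -0.09). Tyrobp, the adaptor through which Trem2 signals, had 56.1 on the OGD array and 60.0 on the resting array (-0.10). The receptor and its adaptor thus differed by little, in the same direction.

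Among receptors for dying cells, Axl had 26.0 on both arrays, exactly equal, and Mertk was under the floor, with 18.4 on both arrays in 1 probe set and 8.66 on the OGD array and 9.40 on the resting array in the other. Exactly equal values occurred in 8.19% of all probe sets that name 1 gene and in 5 of the 79 member probe sets, and how they arose is not given in the sources used here. Gas6, the ligand of Axl and Mertk, had 96.3 on the OGD array and 91.3 on the resting array (0.08) in its brightest probe set. A second probe set of Gas6 had 16.5, under the floor, on the OGD array and 20.6 on the resting array, at least 1.05-fold lower, and the third was under the floor on both arrays.

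Cd68, a lysosomal glycoprotein of macrophages, had 360 on the OGD array and 371 on the resting array (-0.04). Scarb1, a scavenger receptor for lipoproteins, had 28.2 and 24.2 on the OGD array, against 26.1 and 28.1 on the resting array, so that 1 probe set was higher (0.11) and the other lower (-0.22). This gap of 0.33 was the widest between probe sets of a member gene that were above the floor on both arrays. The gap of Gas6 is a bound and is not ranked with it. The scavenger receptors Cd36, Cd163 and Mrc1 were under the floor on both arrays.

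Of 24 listed partners in engulfment 17 were measured, 7 higher, 9 lower and 1 equal, with a median of -0.01. Anxa1, a phosphatidylserine-binding protein, had 42.4 on the OGD array and 33.2 on the resting array (0.35), and Pros1, the other ligand of the Axl and Mertk family, had 27.2 on the OGD array and 21.4 on the resting array (0.34). These were the 2 partners past 1.2-fold, or 11.8% of those measured, against 7.53% of all measured genes, with 3.56% higher. This list too was chosen with earlier results of these data known, so the share is not independent support. Clec7a, a receptor for fungal glucans, was 1.16-fold higher.

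The last group joined the T cell co-stimulators Cd80 and Cd86 with the tetraspanins Cd9 and Cd63, membrane organisers of the cell surface and of late endosomes. Cd80 and Cd86 were under the floor on both arrays in all their probe sets, with Cd80 at 6.98 on the OGD array and 9.20 on the resting array. Cd9 had 381 on the OGD array and 333 on the resting array, a difference of 0.20. Cd63 had 458 on the OGD array and 456 on the resting array, a difference of 0.0072. The median of 0.10 thus rests on 2 genes.

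**Figure D3:**
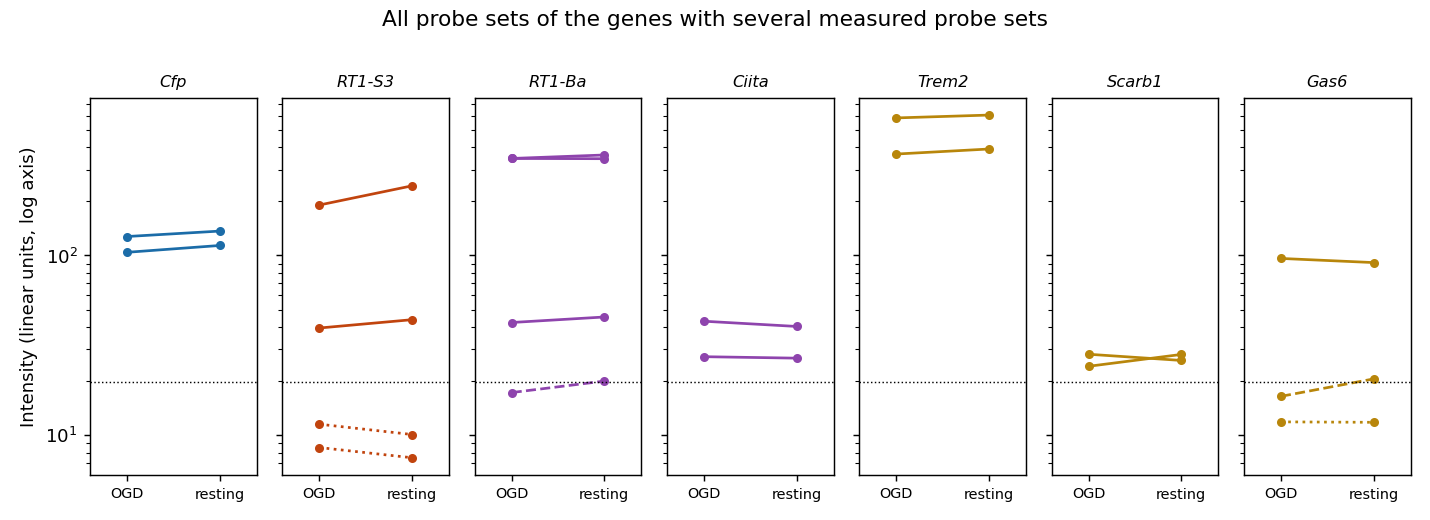
Intensity of every probe set, on a log axis, for the 7 member genes with at least 2 measured probe sets, on the OGD array (left) and the resting array (right). Solid lines are above the floor (dotted) on both arrays, dashed lines on 1 and dotted lines on neither. Both probe sets of Cfp and of Trem2 and both measured ones of RT1-S3 slope the same way, and those of Scarb1 cross.

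Repeated probe sets gave the only check within a gene. Of the 7 member genes with at least 2 measured probe sets, Cfp, Ciita, RT1-S3 and Trem2 had them all on the same side of 0, and the 3 genes RT1-Ba, Scarb1 and Gas6 had them on both sides. Of the 9 genes that differed by more than 0.147, C1qa, C1qc, RT1-M3-1, RT1-T24-3, RT1-T24-4, Fcgr1a and Cd9 had a single probe set. RT1-CE5 had a single measured one. No such check exists for these genes.

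Set side by side, the group medians were 0.10 for co-stimulation and tetraspanins, 0.09 for class I, -0.0048 for Fc receptors, -0.0067 for class II, -0.02 for phagocytic receptors and -0.05 for complement. That of class I was 0.0199 with the floor at the 70th percentile. The complement median minus the class I median was -0.14, and minus the median of co-stimulation and tetraspanins, which rests on 2 genes, it was -0.15. The ranges of the genes overlapped in all 15 pairs of groups. No difference between the groups was tested, since each gene has 1 value per condition.

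Over all genes, large differences were more frequent among dim genes. Too few members were past 1.2-fold to show whether they follow this order. Of all measured genes, 10.2% of those with a mean intensity under 30 were past 1.2-fold, 8.71% of those from 30 to 100, and 3.75% of those from 100 up. Among members the counts were 1 of 12, 0 of 18 and 1 of 10. The SD of the member differences was 0.104 under 30, 0.131 from 30 to 100 and 0.148 from 100 up, against 0.166, 0.155 and 0.122 over all genes. In the dimmest class RT1-A3, RT1-CE10 and RT1-T24-4 entered as bounds. C1qc lay in the dimmest class and RT1-S3 in the brightest. The median difference of all genes in the brightest class was -0.03.

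**Figure D4:**
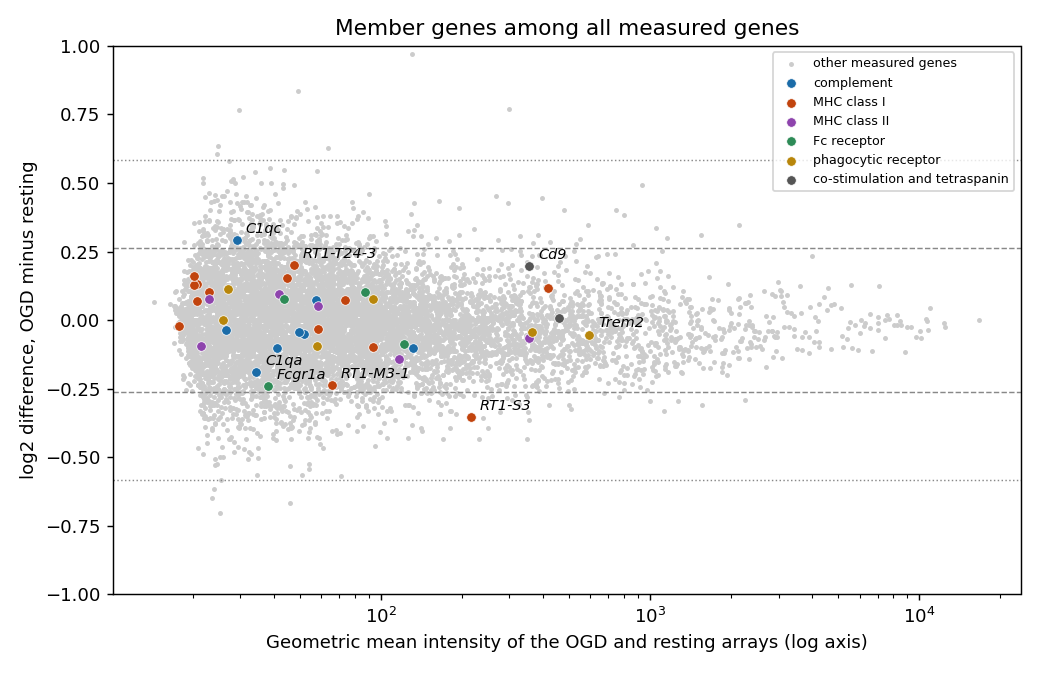
log2 difference, OGD minus resting, against the geometric mean intensity of both arrays (log axis) for the 40 measured member genes, coloured by group, and all other measured genes in grey. Dashed and dotted lines mark 1.2-fold and 1.5-fold. The members lie inside the grey cloud, which narrows towards high intensity.

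Markers of the labelled cell type were present. Of 11 markers of microglia and macrophages, 9 had a probe set and all 9 were measured, among them Aif1 with 47.0 on the OGD array and 48.3 on the resting array and Itgam with 56.5 on the OGD array and 60.9 on the resting array. All 9 were lower on the OGD array, where 51.3% of all genes were, with a median of -0.10 and 0 past 1.2-fold. Their summed intensity was 661 on the OGD array and 696 on the resting array. Csf1r was above the floor at rest only and P2ry12 had the largest difference (-0.26). Cd68 and Tyrobp are also members. Among astrocyte markers Gfap had 36.9 on the OGD array and 27.4 on the resting array (0.43) and Slc1a2 32.0 on the OGD array and 23.8 on the resting array (0.43), Glul had 132 on the OGD array and 152 on the resting array (-0.21), and Aqp4, Slc1a3, S100b and Aldh1l1 were under the floor. The summed intensity of the 7 astrocyte markers was 247.0 on the OGD array and 247.9 on the resting array, with Glul the largest term on both. Such sums mix probe sets of unlike brightness and follow their brightest members. B cell markers were under the floor on both arrays, at 13.1 on the OGD array and 14.0 on the resting array for Cd79b and at 18.4 on the OGD array and 19.3 on the resting array for Ms4a1. Of the dendritic cell markers Flt3 had 27.4 on the OGD array and 28.8 on the resting array, and Itgae was under the floor. Of the other lists, 4 of 8 oligodendrocyte lineage markers were measured, 2 of 5 T and NK cell markers, 2 of 5 endothelial and mural markers, 1 of 6 neuronal markers and 1 of 6 fibroblast markers. Of these only Vwf, an endothelial gene, was past 1.2-fold, with 56.4 on the OGD array and 46.3 on the resting array. The summed intensities were 188 on the OGD array and 183 on the resting array for the oligodendrocyte lineage, and 98.7 on the OGD array and 90.7 on the resting array for T and NK cells. They were 190.3 on the OGD array and 191.7 on the resting array for endothelial and mural cells. For neurons the sum was 113.8 on the OGD array and 104 on the resting array, and for fibroblasts 94.1 on the OGD array and 83.1 on the resting array. The part of other cells in the values of the members was not tested. In cultured cells fewer cells of a type and less RNA per cell cannot be told apart.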

How the data were processed

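Total RNA of microglial cells was extracted with TRIzol and labelled by in vitro transcription with biotinylated nucleotides, per the labels' protocols. The values the authors deposited are intensities, linear and with 1 value for each probe set of an array. How the background was corrected and how probes were summarised and scaled is not stated in the labels, and the arrays have near-equal quartiles (8.47 and 48.0 on the OGD array, 8.45 and 48.2 on the resting array), so a shift shared by most genes could not be seen.

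Probe sets took their gene from the platform annotation, with symbols brought up to date by Entrez ID from RefSeq (assembly GRCr8), which held 54 of the 55 member genes. RT1-A keeps its annotated symbol. The files name no genome build, so coordinates are given only for RefSeq promoters, which matched 43 member genes. Of 31099 probe sets 57 were controls. Values under the floor, the 50th percentile of each array, were set to it, and a probe set above it on at least 1 array counted as measured. A gene was represented by its brightest probe set. The calculation was run on simulated data with known differences put, without noise, into bright probe sets. This checks the arithmetic and not the values near the floor. Python 3.11.15, numpy 2.4.6, pandas 2.3.3 and statsmodels 0.14.6 were used.

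All members are named, and of each partner list up to 3 measured genes by absolute difference, apart from genes marked in the text as named outside that rule. Members, groups, partner lists and markers were chosen with earlier results of these data known. Counts past 1.2-fold among partners and markers have as background the 7.53% of all measured genes past that fold. Alternatives were other floors, scalings, probe sets and summaries. The number of arrays limits the precision.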

Additional observations from a re-analysis of the deposited data

How the results depend on the processing

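The counts of member probe sets, the group medians and the differences of member genes were recomputed under up to 12 alternatives. The other counts of genes, partner lists, markers and brightness classes were not recomputed. The alternatives were a floor at the 30th or 70th percentile or none, only probe sets above both floors, centring, quantile scaling, removal of a loess trend (span 0.3), a pseudocount at the 25th percentile, leaving out probe sets with suffix letters or with equal values, the mean over the probe sets of a gene, and medians over probe sets. The number of member probe sets past 1.5-fold was 0 under every alternative that gives a count. Past 1.2-fold there were 4 with the lower floor, 1 with the higher floor, 8 without a floor, 1 with the pseudocount and 1 without suffixed probe sets, against 2 as reported, and 2 under the others. RT1-S3, whose measured probe sets both carry suffixes, is lost with the last, and C1qc with the higher floor and the pseudocount. Those added without a floor, among them RT1-A3, RT1-N2 and Cd80, read under the floor on 1 or both arrays. The class I median was 0.0199 with the higher floor, and otherwise lay between 0.07 and 0.10. With the higher floor B2m, Tapbp, RT1-A, RT1-A3, RT1-CE10 and RT1-T24-4, all near the floor as reported, were no longer measured. Of these only RT1-A3 had been lower on the OGD array. The complement median stayed below 0 in all alternatives (-0.08 to -0.04) and the tetraspanin median above 0 (0.03 to 0.14). The medians of class II (-0.01 to 0.05), Fc receptors (-0.0048 to 0.06) and phagocytic receptors (-0.05 to 0.00098) took both signs. Of 416 recomputed gene values 411 moved by less than 0.147. The others were RT1-A3 (-0.34 with the lower floor or none, -0.23 with the pseudocount), Fcgr1a (-0.07 with the higher floor) and Scarb1 (-0.05 as the mean of its probe sets). RT1-Ba became 0.0042 without suffixed probe sets. No paired analysis was possible because each group has 1 array, and for the same reason no array could be left out.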

Other observations

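Probe sets that the annotation assigns to several genes, at least 1 of them a member or an RT1 gene, were not members. There were 13, of which 8 were measured and 0 were past 1.2-fold. The probe sets shared by Cfb and C2, of the alternative and the classical pathway, had 50.6, 25.8 and 25.2 on the OGD array, against 58.7, 26.4 and 24.4 on the resting array, with differences of -0.22, -0.04 and 0.05, and the remaining one was under the floor. The probe sets shared by Fcgr2a and Fcgr2al1 were under the floor. A probe set shared by RT1-T24-3 and RT1-T24-4 had 23.0 on the OGD array and 19.0, under the floor, on the resting array, which is at least 1.17-fold higher and the direction of the probe sets that name each of these genes alone. A probe set shared by RT1-A and 4 RT1-CE genes had 53.1 on both arrays, exactly equal.

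Of the member probe sets 6, for Cd74, C3, Cd9, Cd68, C1qa and Cfp, had values on both arrays that lie whole steps of 0.5 from the OGD value of Cd68, within a tolerance of 0.0001 on the doubled values. Cd9 differed by 48.5 intensity units, Cd68 by -11 and Cd74 by -11.5 between the OGD and the resting array. Such pairs made up 2.89% of all 31099 probe sets, or 900, and 7.59% of the member probe sets. Cd68 is the reference and also 1 of the 6, so its OGD value matches by definition and the member share is not independent of it. The sources used here do not say how the values came about.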
